A study of Sus scrofa with 14 samples.

Results

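The 10 T and natural killer (NK) lymphocyte genes, CD3D, CD3E, CD2, CD96, KLRK1, GNLY, CTSW, GZMA_2, XCL1 and CST7, were followed in pig mammary gland and in milk cells, as 10 of the 30071 gene identifiers that the count tables hold. They were chosen by symbol from an earlier look at the same counts, in which they stood out in lymphocytes, and in milk lymphocytes beside gland lymphocytes. Their levels in the lymphocyte cluster and the gap between gland and milk are therefore descriptions without a test, and only the comparisons of stages within the gland were tested. Each of the 10 genes held at least 1 UMI (a unique molecular identifier, which marks 1 RNA molecule) in every library.

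Glands came from multiparous sows, 2 at each of day 90 of gestation (G90), day 0 (L0) and day 20 (L20) of lactation, and 2 days (PI2) and 7 days (PI7) after the start of natural involution, the regression of the gland when suckling ends. Nuclei of each gland gave 1 library, so that the sow was the replicate (n = 2 per stage), and a G90 and a PI2 gland also gave 1 tissue section each. Single cells were sequenced from 1 sample of L0 and 1 of L20, which the labels place in the mammary gland and the study's methods describe as cells of colostrum and of mature milk. No genotype or drug treatment is given for any sow, and by the labels the groups of gland nuclei differ in stage alone, while nuclei, sections and milk cells also differ in material and assay.

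T cells recognise peptides through the T cell receptor, whose signal is carried into the cell by the CD3 chains, while NK cells read the balance of activating and inhibitory receptors. Both kill by releasing granules that hold granzymes, perforin and granulysin into the contact with the target cell. The mammary gland and its milk are known to contain lymphocytes, many of them lodged in or near the epithelium, and colostrum passes such cells on to the young.

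Of these genes, CD3D and CD3E encode chains of the CD3 complex. CD2 is an adhesion molecule of T and NK cells, CD96 is a receptor of the nectin-binding family, and KLRK1 (NKG2D) is an activating receptor for stress-induced ligands. GNLY encodes granulysin, a pore-forming granule protein, CTSW a cysteine protease of cytotoxic lymphocytes, GZMA_2 a granzyme A, and CST7 cystatin F, an inhibitor of the proteases that activate granzymes. XCL1 encodes lymphotactin, a chemokine that attracts cross-presenting dendritic cells.

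In Sscrofa11.1, RefSeq places 9 of the 10 genes by symbol. CD3E (ENSSSCG00000040140; chr9:45619730-45633972, plus strand, 9 exons) and CD3D (ENSSSCG00000015093; chr9:45640475-45644153, minus strand, 5 exons) are 6502 bases apart. The other loci are CD2 (ENSSSCG00000006736; chr4:103963802-103976971), XCL1 (ENSSSCG00000006298; chr4:82432845-82436150), CD96 (ENSSSCG00000023993; chr13:148103424-148192272), KLRK1 (ENSSSCG00000040465; chr5:61646691-61655386), GNLY (ENSSSCG00000008228; chr3:59067327-59072034), CTSW (ENSSSCG00000012970; chr2:6446105-6450357) and CST7 (ENSSSCG00000007131; chr17:30758000-30766472). A pair of RefSeq genes named GZMA lie side by side at chr16:34262495-34272084 and chr16:34282160-34290422, and the sources used here do not say which of them is GZMA_2 (ENSSSCG00000016903). Their transcripts shared 198 of 250 bases over the best local alignment (79.2%) and 0 of their 60-base windows.

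The 250 bases before the RefSeq start of 3 of these genes are shown, 1 for each role: a receptor chain, a granule protein and the chemokine. Capitals mark 4 motifs searched on both strands, RUNX (TGTGGT), ETS (AGGAAG), T-box (TCACAC) and AP-1 (TGACTCA), with overlaps allowed. In XCL1 a RUNX and an ETS match overlap in the capitals nearest the start.
CD3E, chr9:45619480-45619729, plus strand: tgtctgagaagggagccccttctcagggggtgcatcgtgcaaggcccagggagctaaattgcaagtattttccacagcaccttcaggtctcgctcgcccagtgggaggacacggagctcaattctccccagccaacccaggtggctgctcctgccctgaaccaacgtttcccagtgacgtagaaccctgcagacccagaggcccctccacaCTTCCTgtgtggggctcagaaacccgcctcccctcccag
GNLY, chr3:59072035-59072284, minus strand: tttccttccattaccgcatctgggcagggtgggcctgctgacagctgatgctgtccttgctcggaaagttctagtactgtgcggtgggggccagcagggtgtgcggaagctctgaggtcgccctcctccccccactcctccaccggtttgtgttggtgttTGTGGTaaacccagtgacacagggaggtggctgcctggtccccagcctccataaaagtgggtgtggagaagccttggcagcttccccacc
XCL1, chr4:82436151-82436400, minus strand: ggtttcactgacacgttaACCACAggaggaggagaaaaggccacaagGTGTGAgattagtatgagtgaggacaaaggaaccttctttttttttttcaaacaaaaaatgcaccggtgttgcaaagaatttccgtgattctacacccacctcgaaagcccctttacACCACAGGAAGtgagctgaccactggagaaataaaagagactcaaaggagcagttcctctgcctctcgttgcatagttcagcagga
Over the 9 genes, a RUNX match was in 3, an ETS match in 4, a T-box match in 2 and an AP-1 match in 0 of these windows. Of 19556 such windows over the genome, 2730 held the RUNX letters (14.0%), 4880 the ETS letters, 1699 the T-box letters (8.69%) and 567 the AP-1 letters (2.90%).

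Total UMIs ranged from 18962138 to 53165191 per gland library and were 84971814 and 46923887 in milk, and levels are given in CPM (UMIs of the gene per 1000000 UMIs of the same nuclei or cells). Barcodes were clustered without the 10 genes, and 1 cluster of the gland (5799 of 126833 nuclei, 4.57%) and 1 of milk (1688 of 32085 cells, 5.26%) raised 28 of 29 other T and NK markers each. Among the leading genes of the gland cluster were SKAP1, KLRK1, NLRC3, CD3E, CD96, IKZF3, SCML4, RIPOR2 and CD8A, and the milk cluster was led by CTSW, GNLY, GZMA_2, LY6E, CST7, XCL1, CD3D, CD2, TRAT1 and CD3E. Both are called lymphocytes here, although B cell markers were present too, from 141 to 1653 CPM over the list in the gland and at 96.2 and 26.2 CPM in milk. Libraries shared at most 284 barcodes between any pair (1.52% of the smaller library).

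The L20 libraries differed in makeup, and replicate 1 stood apart in its lymphocytes. In replicate 2, 7.12% of nuclei were in the epithelial cluster, 24.3% in the fibroblast cluster, 20.8% in the macrophage and monocyte cluster and 4.75% in the adipocyte cluster, while in replicate 1 50.2% were epithelial. The part of this makeup in the values of L20 was not tested. The 192 lymphocyte nuclei of L20 replicate 1 had 346 CPM of PTPRC, the pan-leukocyte gene CD45, against 1321 to 2788.5 CPM in the other glands, a median of 714.5 UMIs per nucleus, and 1431 CPM over the 29 T and NK markers against 3713 to 8750 CPM. Of its UMIs of the 10 genes, 14.8% lay in the lymphocyte cluster and 32.5% in the epithelial cluster, while in L20 replicate 2 the cluster of lymphocytes held 57.8%. The lymphocyte share, the medians of the 10 genes and the ratios of milk to gland are given with and without L20 replicate 1, and counts at an unadjusted p or of separate libraries only with it. Caseins took 0.0721% and 0.0106% of UMIs at L20, against 1.06% and 0.774% for the L0 glands, 0.121% and 0.806% for G90, 0.0384% and 0.0908% for PI2, and 0.0114% and 0.0197% for PI7. Both L20 glands were thus below both G90 glands and L20 replicate 2 was the lowest of the 10, and L20 is called lactation from its label alone.

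Each of the 10 genes had most of its UMIs in lymphocytes in milk, and all but GZMA_2 in the gland. In the gland the share of a gene's UMIs in the lymphocyte cluster ran from 48.3% for GZMA_2 to 66.4% for KLRK1, and in milk from 84.4% for CD96 to 96.6% for GZMA_2. CD3E reached 482 CPM in gland lymphocytes, against 18.4 CPM in the macrophage and monocyte cluster, the next highest, and 3.71 CPM in the epithelial cluster. CTSW reached 210 CPM in gland lymphocytes and 9.48 CPM in macrophages and monocytes. In milk, CD2 at 61.7 CPM and CST7 at 36.9 CPM were also seen in the cluster with B and plasma cell markers, beside 718 and 727 CPM in lymphocytes.

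The 3 lowest lymphocyte shares were in lactating glands. The share of nuclei was 8.34% and 2.47% for the G90 glands, 1.54% and 1.68% for L0, 1.57% and 3.92% for L20, 3.81% and 3.18% for PI2, and 9.26% and 9.42% for PI7. Both PI7 glands lay above all others, L20 replicate 2 lay above both PI2 glands and G90 replicate 2, and the G90 glands lay far apart. The mean was 2.18% ± 1.16 over the 4 glands of lactation (SD, n = 4) and 6.08% ± 3.25 over the 6 others (SD, n = 6), a difference of −3.90 percentage points with p = 0.0524 (exact permutation test, two-sided, 210 splits, smallest possible p 0.00476). Leaving out barcodes with markers of another cell class gave −3.07 points (exact permutation p = 0.0381), leaving out G90 replicate 2 gave −4.62 (exact permutation p = 0.0476) and leaving out L20 replicate 2 gave −4.48 (exact permutation p = 0.0238). The other alternatives had an exact permutation p over 0.05, from 0.0524 at a resolution of 0.6 to 0.119 without G90 replicate 1, among them 0.0905 with the marker gate and with a stricter barcode filter, 0.0833 without L20 replicate 1 (−3.70 points) and 0.103 without either PI7 gland. In milk the share was 2.28% at L0 (401 of 17571 cells, exact 95% binomial interval 2.07% to 2.51%) and 8.87% at L20 (1287 of 14514 cells, 8.41% to 9.34%), with 1 sample each and no test. Under the stricter barcode filter these shares were 3.40% and 18.5% (1068 of 5765 cells), and without barcodes holding markers of another class 0.0114% and 5.14%. These intervals cover counting error only.

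**Figure D1:**
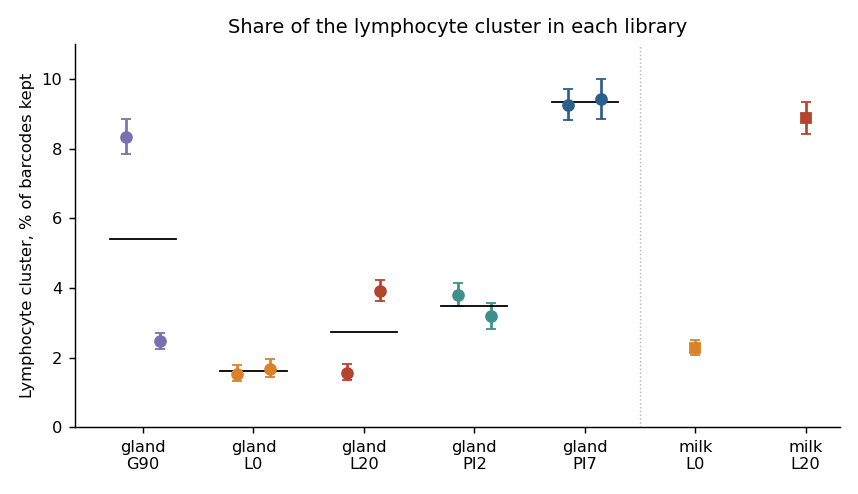
Share of barcodes in the lymphocyte cluster, in percent of those kept, for each gland (circles, 2 sows per stage, bars at their mean) and milk library (squares), with exact 95% binomial intervals of counting error. The PI7 glands sit at 9.26% and 9.42%, and the L0 glands at 1.54% and 1.68%.

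Over all nuclei of a gland, the CD3 genes were at their lowest stage means in lactation and at their highest at PI7. CD3D stood at 17.2 and 2.86 CPM in the G90 glands, 3.67 and 3.68 CPM for L0, 1.49 and 5.01 CPM by L20, 8.48 and 9.79 CPM in PI2 and 17.9 and 18.6 CPM in PI7. CD3E stood at 28.4 and 5.14 CPM in the G90 glands, 5.92 and 5.19 CPM for L0, 12.1 and 13.5 CPM by L20, 29.6 and 17.0 CPM in PI2 and 32.02 and 63.0 CPM in PI7. In both genes the PI7 glands lay above the PI2 glands, which lay above the L20 glands, while the G90 glands lay far apart. Levels over all nuclei do not tell fewer lymphocytes apart from less RNA per lymphocyte.

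CD2 and CD96 were at 1.91 to 18.0 CPM and 3.49 to 48.5 CPM over all nuclei, with the lowest value of each in L20 replicate 1 and the highest at PI7. KLRK1 stood at 18.4 and 4.04 CPM in the G90 glands, 9.52 and 7.06 CPM for L0, 2.38 and 11.08 CPM by L20, 60.8 and 7.17 CPM in PI2 and 41.5 and 79.9 CPM in PI7. The PI2 glands thus differed more from each other in this receptor than the glands of L0 or PI7 did.

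Among the granule genes, CTSW stood at 15.9 and 2.13 CPM in the G90 glands, 4.38 and 3.33 CPM for L0, 3.82 and 5.87 CPM by L20, 20.4 and 12.03 CPM in PI2 and 16.7 and 13.3 CPM in PI7. Both glands of PI2 and of PI7 were above the 4 glands of lactation. GNLY, GZMA_2 and CST7 were scarce, with medians over the 10 glands of 1.34, 0.858 and 1.36 CPM and highest values of 7.34, 3.91 and 4.99 CPM, all at PI7. XCL1 stood at 5.40 and 0.621 CPM in the G90 glands, 1.68 and 0.907 CPM for L0, 0.186 and 0.584 CPM by L20, 4.08 and 1.60 CPM in PI2 and 3.81 and 2.67 CPM in PI7. Both L20 glands were below all 8 others for XCL1.

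**Figure D2:**
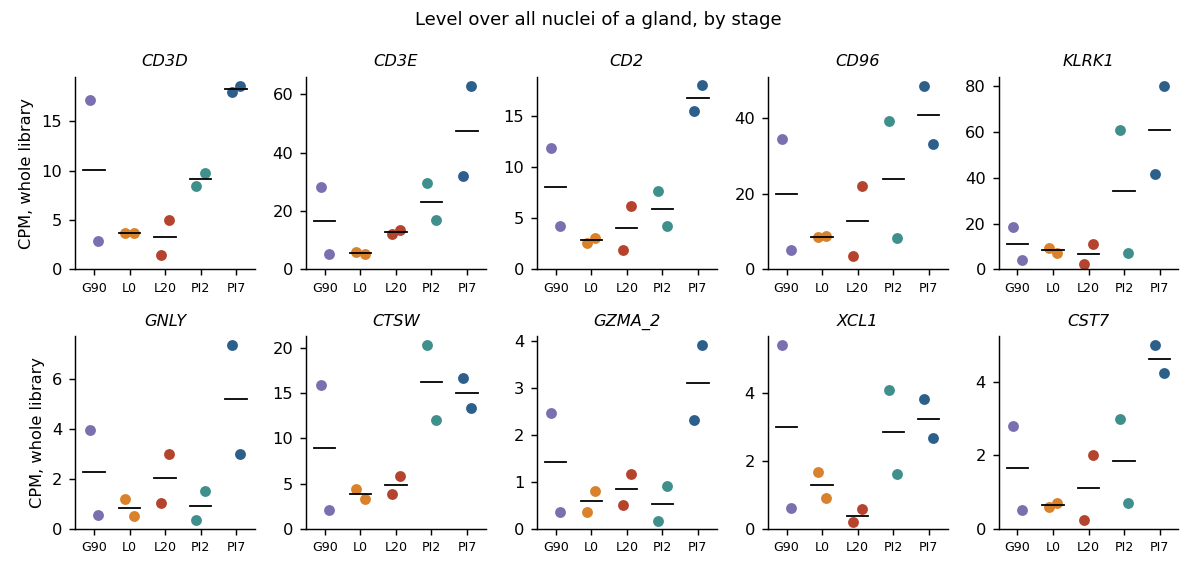
CPM of the 10 genes over all nuclei of a gland, by stage, with 1 point per sow (n = 2) and a bar at the mean, each panel on its own linear axis from 0. XCL1 was below 0.6 CPM in both L20 glands, and GNLY, GZMA_2 and CST7 stayed below 8 CPM throughout.

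With edgeR's quasi-likelihood test over all nuclei, in none of 5 comparisons was any of the 10 genes called, which took a log2 fold change beyond 1 with an adjusted p under 0.05, nor was any other of the 22695 genes tested (0 called, 0%). DESeq2 called 0 of the 10 as well, and 119 genes in all in lactation against the other stages, where edgeR had 880 at an unadjusted p under 0.05 and a log2 fold change over 1. All 10 had passed edgeR's filter on low counts, and all 10 had negative log2 fold changes in lactation (L0 and L20) against the other stages, from −1.91 for XCL1 to −0.60 for GNLY, with a median of −1.38 beside −0.03 over all genes tested. At an unadjusted p under 0.05 and a log2 fold change over 1, 6 of the 10 were lower in lactation, where 2.08% of all genes were. CD3D differed by −1.65 (standard error 0.48, edgeR adjusted p = 0.735), KLRK1 by −1.84 (standard error 0.64, edgeR adjusted p = 0.783) and XCL1 by −1.91 (standard error 0.63, edgeR adjusted p = 0.754) on the log2 scale. CD3E, CD2 and CTSW were the other genes among the 6. For none of the 10 genes did the 4 glands of lactation lie apart from the 6 others, where 0.925% of genes did so in either direction. Without L20 replicate 1 the median was −1.26 and all 10 kept a negative sign.

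Adjacent stages gave the same count of 0 by edgeR and by DESeq2 among the 10 genes. From L20 to PI2, 4 of the 10 were higher at an unadjusted p under 0.05 (1.39% of all genes were), namely CD3D by 1.93, KLRK1 by 2.76, CTSW by 2.06 and XCL1 by 3.23 on the log2 scale, with an edgeR adjusted p of 0.825 each. The PI2 glands lay above the L20 glands for CD3D, CD3E, CTSW and XCL1, 4 of the 10 genes against 6.75% of all genes. For 6 of the 10, both PI7 glands lay above both PI2 glands (19.6% of all genes). From L0 to L20 only XCL1 was lower at an unadjusted p under 0.05 (−2.34, edgeR adjusted p = 0.343, 6.09% of all genes). CD2 alone had both L0 glands below both G90 glands, where 41.0% of all genes did. Without L20 replicate 1 the median of the 10 genes from L0 to L20 turned from −0.16 to 0.34, and from L20 to PI2 it went from 1.26 to 0.91.

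Within the lymphocyte nuclei the log2 fold changes of lactation against the other stages lay nearer 0 for each of the 10 genes. Over these nuclei CD3E stood at 480.1 and 233 CPM in the G90 glands, 479 and 388 CPM for L0, 233 and 362 CPM by L20, 852 and 674 CPM in PI2 and 315 and 888 CPM in PI7. The 10 genes had log2 fold changes from −0.70 to 0.24 in lactation against the other stages, with a median of −0.49 beside −0.06 over the 11599 genes tested, and 0 of the 10 were called by edgeR (0% of all genes) or by DESeq2, with 0 at an unadjusted p under 0.05 and a log2 fold change over 1 (3.12% of all genes). Without L20 replicate 1 this median was −0.21. A test of the difference between the log2 fold changes over all nuclei and over lymphocyte nuclei was not run, since both hold the same nuclei.

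**Figure D3:**
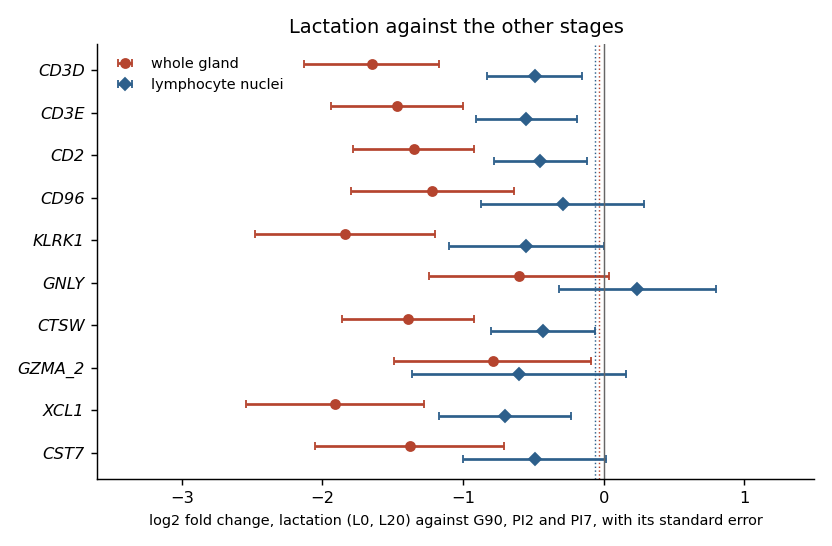
Log2 fold change of each gene in lactation (L0 and L20, 4 sows) against G90, PI2 and PI7 (6 sows), with its standard error from edgeR, over all nuclei (circles) and over lymphocyte nuclei (diamonds), and dotted lines at the median of all genes. Over all nuclei the values lie between −1.91 and −0.60, and over lymphocyte nuclei between −0.70 and 0.24.

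Inside the lymphocyte cluster, the receptor KLRK1 had its widest gap in CPM between sows at PI2, at 1554 and 282 CPM. Elsewhere it was at 305 and 219 CPM at G90, 836 and 605 CPM at L0, 31.0 and 361 CPM at L20, and 511 and 1105 CPM at PI7. CD96 showed the same sow at the top, with 1168 CPM in PI2 replicate 1 and 263 CPM in PI2 replicate 2, against a median of 503 CPM over the 10 glands. In PI2 replicate 1, 3.37% of epithelial nuclei held a KLRK1 UMI, and 3.86% did in PI7 replicate 2, beside 68.1% and 50.1% of the lymphocyte nuclei of the same glands. In the other 8 glands 0.114% to 1.09% of epithelial nuclei did.

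The lymphotactin gene XCL1 in lymphocyte nuclei stood at 92.3 and 34.1 CPM in the G90 glands, 131 and 60.5 CPM for L0, 0 and 15.5 CPM by L20, 86.9 and 68.5 CPM in PI2 and 42.3 and 24.0 CPM in PI7. The L20 nuclei held 0 and 14 XCL1 UMIs, and a count of 0 allows up to 15.5 CPM in L20 replicate 1. From L0 to L20 it was lower by a log2 fold change of −3.36 (standard error 0.79, edgeR adjusted p = 0.362), and from L20 to PI2 it was higher by 2.94 (standard error 0.77, edgeR adjusted p = 0.637), or by 2.49 without L20 replicate 1. DESeq2 called the first of these (adjusted p = 0.0338), and without L20 replicate 1 edgeR gave −2.90 (adjusted p = 0.363).

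CTSW in lymphocyte nuclei stood at 234 and 97.9 CPM in the G90 glands, 295 and 217 CPM for L0, 36.2 and 170 CPM by L20, 499 and 466 CPM in PI2 and 147 and 167 CPM in PI7. Both PI2 glands were above every other gland. Its log2 fold change was 2.25 from L20 to PI2 (standard error 0.59, edgeR adjusted p = 0.637; 1.69 without L20 replicate 1) and −1.74 from PI2 to PI7 (standard error 0.56, edgeR adjusted p = 0.998). It was the only one of the 10 genes with an unadjusted p under 0.05 and a log2 fold change under −1 from PI2 to PI7, where 0.983% of all genes were lower. GNLY was at 6.95 to 83.1 CPM and GZMA_2 at 0 to 58.0 CPM over the 10 glands, with as few as 3 and 0 UMIs in a library, and neither passed an unadjusted p of 0.05 in any comparison by edgeR. GNLY was at 6.95 and 68.5 CPM in the 2 sows of PI2, from 4 and 25 UMIs.

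Over the lymphocyte nuclei, most of the 10 genes had the same sign in each comparison with L20. From L0 to L20, 5 of the 10 genes were lower at an unadjusted p under 0.05 (3.51% of all genes), with a median of −1.50 over the 10. For 8 of them, both L20 glands lay below both L0 glands (13.0% of all genes). From L20 to PI2, 6 were higher at that p (2.47%), with a median of 1.49 over the 10. For 5 of them, both PI2 glands lay above both L20 glands (12.6%). Without L20 replicate 1 these medians were −0.95 and 1.06, and edgeR called 0 of the 10 genes, as with it. From G90 to L0 all 10 log2 fold changes were positive (median 0.65). Both L0 glands lay above both G90 glands for CD2, CD96 and KLRK1 (14.7% of all genes). Of the 10, 0 passed even an unadjusted p under 0.05, where 6.01% of all genes did with a log2 fold change over 1.

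Over the lymphocyte clusters as found, gland and milk differed most in the granule genes and XCL1. Mean levels over the 4 gland libraries of L0 and L20 (± SD, n = 4) are set here against the 2 milk libraries, for which there are no replicates. GZMA_2 was at 17.7 ± 25.6 CPM in gland nuclei, with 1, 11, 0 and 10 UMIs in the 4 libraries, and at 591 and 810 CPM in milk at L0 and L20, a ratio of the means of 39.7 (log2 5.23, and 4.84 to 6.85 with each library left out in turn). Log2 ratios of milk to gland were taken with 1 CPM added to each mean, and other ratios without it unless stated. For GZMA_2 the log2 ratio was 4.46 after thinning to 500 UMIs per barcode and 4.05 with the marker gate described below. Without barcodes holding markers of another class it was 3.88. CST7 was at 29.6 ± 20.5 CPM in the gland and 563 and 777 CPM in milk, a ratio of 22.6. GNLY was at 48.3 ± 27.7 CPM in the gland and 463 and 1139.9 CPM in milk, a ratio of 16.6.

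CTSW was at 179 ± 109 CPM in gland lymphocytes and 2159 and 1232 CPM in milk lymphocytes, a ratio of 9.45. XCL1 was at 51.8 ± 58.8 CPM in the gland and 2075 and 206 CPM in milk, so that its ratio of 22.0 rests mostly on the L0 sample of milk. In all of these 5 genes both milk libraries, clustered as found, lay above each of the 10 gland libraries (10.9% of all genes lay above the 4 of L0 and L20). For XCL1 this was lost with other choices of barcodes. Without barcodes holding markers of another cell class, GZMA_2 and CST7 had 0 UMIs in milk of L0. Only 2 cells with 1998 UMIs were left there, too few to judge the order. In milk of L20 these genes were then at 656 and 803 CPM. Each was then at 76.3 CPM (6 UMIs) in L0 replicate 2 of the gland. With the barcodes that carried markers of another cell class left out, XCL1 was at 173 CPM in milk of L20 (208 of 1203630 UMIs) and at 319 CPM in L0 replicate 1 of the gland (13 of 40777 UMIs), and the log2 ratio went from 4.43 to −0.37, with 0 XCL1 UMIs in the 2 milk lymphocytes then left at L0. The marker gate took barcodes with UMIs of at least 2 T and NK markers. They also had to hold more UMIs of these than of the markers of any other class. Under this gate, XCL1 was at 144 CPM in milk of L20 and 161 CPM in L0 replicate 1 of the gland.

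The receptor genes showed smaller gaps. CD3D was at 181 ± 102 CPM in gland lymphocytes and 603 and 586 CPM in milk (ratio 3.29), and CD2 at 155 ± 90.8 CPM and 549.5 and 770.0 CPM (ratio 4.25). For these 2 genes, too, the milk libraries, clustered as found, lay above all 10 glands. Under other choices of barcodes, levels are given for the glands of L0 and L20 alone. With the marker gate, CD3D was at 332 and 390 CPM in milk and at most 290 CPM in these glands. CD2 was at 278 and 524 CPM in milk and at most 275 CPM in these glands. Without barcodes holding markers of another class, CD2 was at 0 CPM in milk of L0. This value rests on 2 cells with 1998 UMIs, too few to judge the order. CD2 was then at 881 CPM in milk of L20 and 305 CPM in L0 replicate 2 of the gland. CD3E was at 366 ± 102 CPM in the gland and 389 and 536 CPM in milk (ratio 1.27), and KLRK1 at 458 ± 345 CPM and 752 and 315 CPM (ratio 1.16), with overlapping values. CD96 alone had a mean below that of the gland, with 417 ± 270 CPM in the gland and 382 and 126 CPM in milk (ratio 0.609), again with overlap. Without L20 replicate 1 the ratios were 29.7 for GZMA_2, 17.0 for CST7, 16.5 for XCL1, 13.5 for GNLY, 7.47 for CTSW, 3.38 for CD2, 2.74 for CD3D, 1.13 for CD3E, 0.888 for KLRK1 and 0.462 for CD96.

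**Figure D4:**
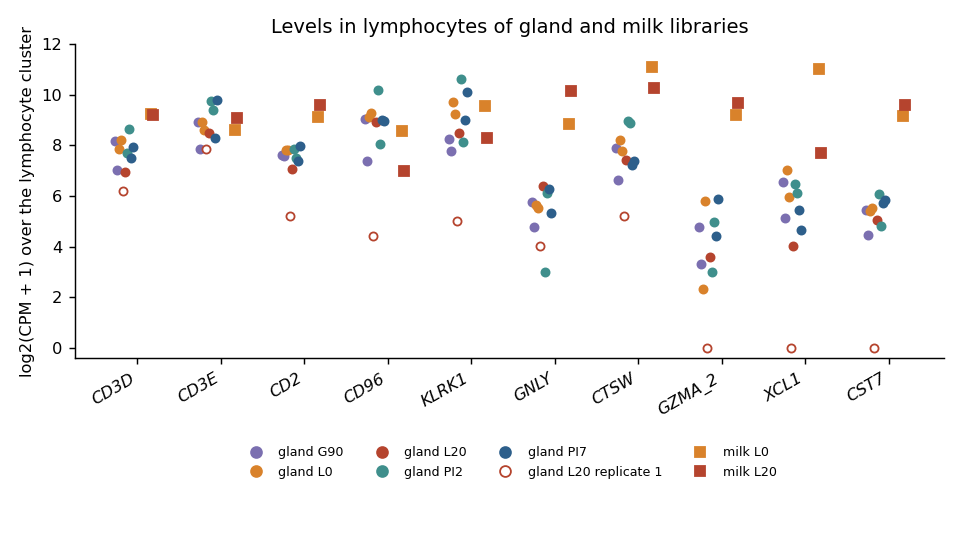
Level of each gene over lymphocyte barcodes as log2(CPM + 1), for 10 gland libraries (circles, L20 replicate 1 open) and 2 milk libraries (squares), coloured by stage. Both milk libraries lie above all gland libraries for CD3D, CD2, GNLY, CTSW, GZMA_2, XCL1 and CST7, and among them for CD3E and KLRK1.

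Thus 7 of the 10 genes were over 2-fold higher in milk, where 10.4% of 16577 genes with at least 20 UMIs were, and 0 were over 2-fold higher in the gland, where 69.9% of genes were. Without L20 replicate 1 the latter count was 1 (CD96), as it was under the marker gate. With 1 CPM added to each mean, the ratio under the gate was 0.358 for CD96, 0.722 for CD3E and 0.777 for KLRK1. Since the genes were chosen with this contrast in view, the counts describe them and test nothing. The shares of all genes used CPM pooled over all 10 glands and over both milk libraries. The counts of the 10 genes used means over the glands of L0 and L20. On pooled CPM, CD96 (506 in the gland and 186 in milk) would also be over 2-fold higher in the gland. The median pooled ratio over all these genes was 0.190, so a gene with equal CPM in both materials stood above most others in milk. Gland values are of nuclei and milk values of whole cells, and the part of material and of nuclei against cells in the ratios cannot be told apart. Epithelial markers summed to 9018 CPM in the milk lymphocytes of L0 and 1685 CPM in those of L20, against 524 to 5998 CPM in the gland, and granulocyte markers to 1520 and 806 CPM in milk against 0 to 51.7 CPM in the gland. The part of this other RNA in the ratios was not tested. Leaving out barcodes that carried markers of another cell class kept 2 of the 401 milk lymphocytes of L0, with 1998 UMIs. XCL1 was then no longer over 2-fold higher in milk, and CD96 and KLRK1 were over 2-fold higher in the gland (log2 ratios −3.29 and −1.96).

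Shares of lymphocyte barcodes with a UMI were higher in both milk libraries than in any gland for GZMA_2, GNLY and CST7, but not for XCL1, at 8.70% in milk of L20 and 11.4% in L0 replicate 1 of the gland. A GZMA_2 UMI was in 0% to 4.43% of lymphocyte nuclei per gland, and in 32.2% and 24.6% of milk lymphocytes at L0 and L20. A GNLY UMI was in 0.844% to 6.90% of nuclei and in 14.5% and 22.3% of milk lymphocytes, and a CST7 UMI in 0% to 6.54% and in 40.6% and 54.9%. In epithelial barcodes, which should lack these genes, the highest share for GNLY, GZMA_2 and CST7 in any library was 0.685%, at median depths of 1239 to 19389 UMIs per barcode against 714.5 to 1597 UMIs in lymphocytes.

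Every lymphocyte was then thinned to 500 UMIs, which left out none since all held as many. GNLY was then found in 0% to 4.38% of gland and in 11.5% and 14.9% of milk lymphocytes, CTSW in 2.08% to 24.1% and in 44.9% and 37.1%, and XCL1 in 0% to 5.68% and in 32.2% and 5.13%. For CD3E the shares were 9.38% to 34.7% in the gland and 16.5% and 22.4% in milk, so that the milk libraries lay among the glands. Thinned shares of epithelial barcodes were at most 1.05% for KLRK1, in PI7 replicate 2, and 0.726% for CD3E in the same gland.

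**Figure D5:**
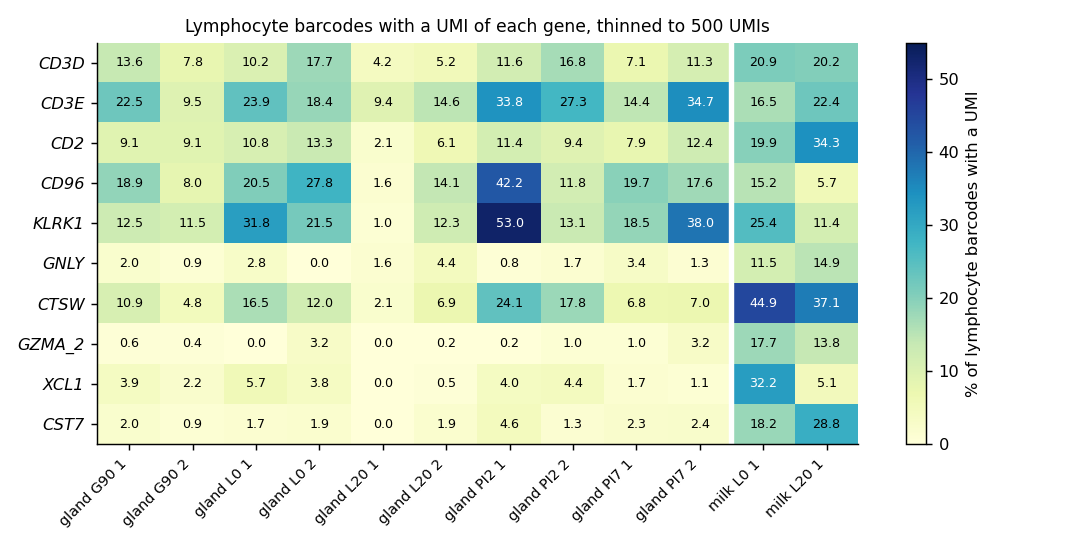
Percent of lymphocyte barcodes with at least 1 UMI of each gene after thinning each barcode to 500 UMIs, with 1 column per library (10 glands, then 2 of milk). GNLY, GZMA_2 and CST7 stay below 5% in every gland and lie above 11% in both milk libraries.

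Granule genes and the CD3 genes were found together in part of the barcodes only. At least 1 of the granule genes GNLY, CTSW, GZMA_2 and CST7 was found in 4.69% to 39.7% of lymphocyte nuclei per gland and in 75.3% and 82.2% of the milk lymphocytes of L0 and L20. Of these nuclei 44.4% to 64.8% per gland also held a CD3D or CD3E UMI, against 14.2% to 55.6% of those without a granule gene. In milk the values were 71.9% and 76.6% against 46.5% and 61.1%. Barcodes with a granule gene had a higher median of UMIs in both milk libraries (1730 and 1634.5 against 1338 and 1262) and in 8 of 10 glands, and the part of this depth in the gap was not tested.

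Lymphocyte barcodes without a UMI of any of the 10 genes made up 4.22% (PI2 replicate 1) to 39.0% (G90 replicate 2) of the cluster in 9 glands and 79.2% in L20 replicate 1. In milk they were 8.48% at L0 and 2.49% at L20. In the gland these nuclei had median depths of 679 to 1094.5 UMIs.

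Other genes of lymphocyte signalling and killing were read from a list of 63, of which 57 had a symbol in the tables. Of the 54 tested over all nuclei, 0 were called by edgeR in any comparison (0% of all genes), and 52 had negative log2 fold changes in lactation against the other stages (median −0.74), 14 of them lower at an unadjusted p under 0.05 and a log2 fold change over 1, where 2.08% of all genes were. These values were not computed without L20 replicate 1. Among these were IL2RB (−1.42), a chain of the interleukin 2 receptor, and CD8A (−1.58), a co-receptor of killer T cells. Over lymphocyte nuclei, 0 of 52 were called, 31 had negative values and the median was −0.22.

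Among the 5 listed genes of highest CPM in gland lymphocytes, not corrected for gene length, were SKAP1 at 1802, FYN at 764, CCL5 at 344 and CD247 at 322 CPM. In milk lymphocytes the 5 were CCL5 at 13943, CCL4 at 2303, SRGN at 2209, NKG7 at 799 and GZMH at 740 CPM. The former are mostly parts of T cell receptor signalling, and the latter are chemokines and granule contents. CCL5 (RANTES), a chemokine that draws T cells and monocytes, was at 51.9 to 603 CPM in the 10 glands and at 13708 and 14703 CPM in the 2 milk libraries.

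By group, 8 of 8 granule contents other than the 4 above were over 2-fold higher in milk lymphocytes (median ratio 6.22), as were 5 of 6 death ligands and cytokines (median 24.7) and 8 of 12 cytokine receptors and homing genes (median 4.31), again where 10.4% of all genes were. Of 7 signalling genes 0 were, and 5 were over 2-fold higher in the gland (median 0.237), where 69.9% of all genes were. NK receptors (1 of 6 higher in milk and 2 in the gland, median 0.756) and transcription factors (1 of 9 and 3 of 9, median 0.867) were mixed. Over the whole list, 25 of 55 were over 2-fold higher in milk and 12 in the gland. Of 7 further chains and co-receptors of the T cell receptor 2 were higher and 1 lower in milk (median 0.888). All these group counts and medians set CPM pooled over the lymphocytes of all 10 glands against CPM pooled over both milk libraries. The ratios of the 10 genes used the glands of L0 and L20 alone. For some of the NK receptors the direction depends on this choice. Pooled milk CPM was 39.78 for KLRD1, 51.616 for NCR1 and 31.561 for TIGIT. Each lay below the pooled CPM of all 10 glands, at 56.071, 59.965 and 39.327. Each lay above the mean CPM of the L0 and L20 glands, at 28.354, 31.757 and 19.319. KLRB1 was higher in milk, and CD226 and CD244 in the gland, by either choice. The group counts rest on the lymphocyte clusters as found, with L20 replicate 1 included. They are given for no other choice of barcodes. The ranges of the 10 genes and of these groups share libraries, so none is independent of the others.

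Across 119 pairs of a gland library and a cluster with at least 20 nuclei, the genes whose log2(CPM + 1) followed CD3E most closely included IL2RB, CD8A and CORO1A (Pearson's r = 0.87 each) and CD2 (0.86), out of 23258 genes. For GNLY they were CRTAM, SH2D1A and KLRB1 (0.82 each), CD28 and CD5 (0.81 each). Among the 10 genes, r with CD3E ran from 0.66 for GZMA_2 to 0.86 for CD2 and CTSW. These points share libraries, depth and clusters, so the values are given as a description.

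In the tissue sections, all 10 genes had higher CPM at PI2 than at G90, as did 44.8% of the 13428 genes with at least 20 UMIs, with 1 section of each (2248 and 4721 spots) and no test. CTSW was at 15.2 and 99.2 CPM, CST7 at 6.03 and 37.5 CPM, CD3E at 4.90 and 26.1 CPM, and XCL1 at 4.27 and 20.5 CPM at G90 and PI2. GNLY at 6.14 and 11.6 CPM and GZMA_2 at 1.26 and 1.79 CPM had the smallest ratios. A CTSW UMI was in 12.1% of G90 spots (95% exact binomial interval 11.2% to 13.0%) and in 40.8% of PI2 spots (38.8% to 42.9%), although the PI2 spots were shallower (medians of 5927 and 8062 UMIs). A spot can hold several cells, so the sections give levels of tissue and not of lymphocytes.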

How the data were processed

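The deposited files hold counts of UMIs per gene and barcode, which the authors made with CeleScope for gland nuclei and milk cells and with Space Ranger for the sections (version 1.2.0 in the submitters' processing notes, another in the file headers), on Sscrofa11.1. The sources used here do not state whether intronic reads were counted. The 10 genes and all gene lists were chosen with earlier results of these data known. Barcodes were kept from 300 genes up and with no more than 25% of UMIs mitochondrial, scaled to 10000 UMIs, reduced to 15 principal components of 2000 variable genes without the 10 genes, joined across libraries by Harmony, and clustered at a resolution of 0.3 (scanpy 1.11.5, igraph 0.11.9). Doublets were kept, and an alternative left out lymphocytes with UMIs of 2 or more markers of another class. Counts were summed per sow and tested with edgeR 4.0.16 (quasi-likelihood, TMM, filterByExpr, Benjamini-Hochberg adjustment, R 4.3.3) over all 5 stages, with a gene called at an adjusted p under 0.05 and a log2 fold change over 1 in size. DESeq2 1.42.0 was an alternative. The labels name separate samples but not how they were taken, so p-values measure the spread between these samples. The fits were run on simulated data, where changed genes had to be recovered only at a smaller spread between samples than in the glands. In the glands this spread, as a coefficient of variation, was 0.555 over all nuclei and 0.451 over lymphocyte nuclei. The simulation therefore does not show which changes 2 sows per stage can reveal. Named besides the 10 genes were the 5 listed genes of highest CPM in gland and in milk lymphocytes and the 5 genes most like CD3E and GNLY. Intervals are exact binomial ones at 95%, and a count of 0 was read as allowing 3 counts. A gene that these rules also name is not reported here.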

Additional observations from a re-analysis of the deposited data

Results flagged for a closer look

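A library far from the others of its group was looked for in 42 groups of libraries and found in 2, where chance gives about 1 in 20. Among the 4 glands of lactation, the lymphocyte share of L20 replicate 2 was 3.92%, with the nearest other gland at 1.68%. Among the 6 glands of the other stages, CD96 in lymphocyte nuclei of PI2 replicate 1 was at 1168 CPM, with the nearest at 523 CPM.

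For 3 of the genes whose L0 and L20 gland libraries did not overlap, the direction from L0 to L20 differed between gland and milk lymphocytes. CD3E, CD2 and CST7 were lower in both L20 glands than in both L0 glands, while the milk sample of L20 was 1.38 times that of L0 for CD3E, 1.40 times for CD2 and 1.38 times for CST7. GZMA_2, whose gland libraries overlapped, also had a negative log2 fold change in the gland (−2.13) and went from 591 to 810 CPM in milk. This difference between the materials was not tested, since milk had 1 sample per stage.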

How the results depend on the processing

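The limits are 2 sows per stage, 1 milk sample per stage and few UMIs of GNLY, GZMA_2, XCL1 and CST7 in gland nuclei. The count of genes called over all nuclei, 0 in each comparison, was 1639 (L0 against G90), 2906 (L20 against L0), 816 (PI2 against L20), 464 (PI7 against PI2) and 880 (lactation) at an unadjusted p under 0.05, and 371, 1116, 17, 13 and 119 by DESeq2. Without the low-count filter 33, 269, 3 and 28 were called for the first 3 and lactation, and a fit to the 2 stages alone called 407 for L0 against G90. Over lymphocyte nuclei the unadjusted counts were 697, 1105, 873, 379 and 362, and with no filter 72, 130, 26, 31 and 65. DESeq2 called 29 (L0 against G90), 44 (L20 against L0) and 10 (lactation) there. Fits to the 2 stages alone called 17 and 1 for L0 against G90 and L20 against L0, and with nuclei chosen by a marker gate 2 for L20 against L0 and 2 for PI2 against L20. The causes were not tested.

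Of the 10 genes, 1, 4 and 6 passed at an unadjusted p over all nuclei (L20 against L0, PI2 against L20, lactation) and 5, 6 and 1 over lymphocyte nuclei (L20 against L0, PI2 against L20, PI7 against PI2). DESeq2 called 1 of them (XCL1, L20 against L0, lymphocyte nuclei). With no filter edgeR called 1 (XCL1) for L20 against L0 and 2 (CTSW and XCL1) for PI2 against L20. Leaving out each replicate in turn gave 0 of the 10 in every comparison, and over all genes 0 to 15 (L20 against L0) and 0 to 8 (lactation) over all nuclei, and 0 to 2 (L0 against G90), 0 to 3 (L20 against L0) and 0 to 8 (lactation) over lymphocyte nuclei. With the replicate number as a block, 0 genes were called in every comparison. Each gene's deviation of replicate 1 from the mean of its stage correlated between stages at −0.52 to 0.39 over all nuclei. Over lymphocyte nuclei these correlations were −0.28 to 0.27, so the numbers do not pair the samples.

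The difference in lymphocyte share ranged from −4.62 to −3.23 points with each replicate left out and was −3.07 without barcodes holding markers of another class. The log2 ratio of milk to gland went with the gate from 0.34 to −0.47 for CD3E, from 0.22 to −0.36 for KLRK1 and from −0.71 to −1.48 for CD96. It went from 1.71 to 1.04 for CD3D, 2.08 to 1.11 for CD2, 3.23 to 2.54 for CTSW and 4.02 to 4.25 for GNLY. For GZMA_2 it went from 5.23 to 4.05, for CST7 from 4.45 to 3.79 and for XCL1 from 4.43 to 3.79. Leaving out barcodes with markers of another class kept 2 milk lymphocytes of L0, with 1998 UMIs. CD3E, CD2, CD96, KLRK1, GZMA_2, XCL1 and CST7 held 0 of these UMIs, CD3D 1, CTSW 3 and GNLY 6. The mean over both milk libraries then rests on those few UMIs for L0, and its log2 ratio to the gland was −0.86 for CD3E, −3.29 for CD96, −1.96 for KLRK1, 5.34 for GNLY and −0.37 for XCL1. The log2 ratio was 3.88 for GZMA_2, 3.85 for CST7, 2.84 for CTSW, 1.51 for CD3D and 1.08 for CD2. For genes with 0 UMIs at L0, the milk value came from the L20 sample alone. With each library left out in turn, the log2 ratio ran from −0.54 to 0.71 for KLRK1, 0.09 to 0.55 for CD3E, −1.72 to −0.13 for CD96, 1.45 to 2.06 for CD3D, 1.75 to 2.32 for CD2, 2.77 to 3.58 for CTSW, 3.23 to 4.53 for GNLY, 4.05 to 4.73 for CST7, 4.84 to 6.85 for GZMA_2 and 1.97 to 5.44 for XCL1.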
